A study of Mus musculus with 12 samples.

Results

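9 genes that mark pericytes and smooth muscle cells, of 55335 genes counted, were followed through 12 RNA-seq libraries of mouse muscle stem cells (MuSCs). They are Rgs5, Pdgfrb, Cspg4, Kcnj8, Abcc9, Mcam, Myh11, Cnn1 and Tagln, matched exactly on the gene name. They were chosen by name with their counts in these libraries already known, so their levels and fold changes are given as a description, without p-values, and the counts of calls among them are set once beside those of all genes. All 9 passed the filter on low counts that left 22635 genes for testing. MuSCs were sorted from hindlimb muscle of Pax7-ZsGreen mice, 3 to 6 months old, which carry a green reporter driven by the promoter of Pax7, the transcription factor that defines MuSCs. There were 4 groups of 3 libraries. F cells were lysed as they came off the sorter, and 2d-U cells and 5d-U cells grew without load for 2 and 5 days. The 2+3d-C cells were cultured for 2 days and then for 3 more under a silicone device. Its film stood on short pillars, whose height limited the height of the cells. All groups share the genotype and the gate, which set green fluorescence against a second, negative channel and used no marker of another lineage. The sources used here do not say which animals gave which library, and p-values therefore measure the spread between these libraries, which may be technical.

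Pericytes wrap capillaries and smooth muscle cells surround larger vessels, and both share a basement membrane or a wall with endothelial cells. Pericytes are held on the vessel by platelet-derived growth factor from the endothelium, which acts on the receptor that Pdgfrb encodes. Smooth muscle cells contract with their own myosin, actin and calponin, whose genes are activated through serum response factor (SRF) and its cofactor myocardin. In skeletal muscle both lie close to the fibers and to MuSCs, but neither belongs to the myogenic lineage.

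The 9 genes lie at several places in the genome (coordinates of mm10, as in the files). Kcnj8 (chromosome 6, 142564837 to 142571614, minus strand) and Abcc9 (chromosome 6, 142587862 to 142702315, minus strand) are 16247 bases apart and encode the pore and the regulatory subunit of one ATP-sensitive potassium channel. Rgs5 is on chromosome 1 (169655501 to 169695813) and Myh11 on chromosome 16 (14194535 to 14291372). Chromosome 9 holds 4 of them, Cnn1 (22099216 to 22109630), Mcam (44134469 to 44142727), Tagln (45929619 to 45936058) and Cspg4 (56865033 to 56899870). RefSeq upstream sequences (build GRCm38.p6, the 250 bases before the start of the RefSeq gene) were used for 6 of the 9 genes, without Pdgfrb, Myh11 and Tagln. Those of the 2 channel genes, of Rgs5 as a pericyte gene and of Cnn1 as a smooth muscle gene are printed here 5′ to 3′ as examples. Capitals mark the motif CANNTG, the E-box bound by myogenic and other helix-loop-helix factors.
Rgs5 (chr1:169655251-169655500, plus strand): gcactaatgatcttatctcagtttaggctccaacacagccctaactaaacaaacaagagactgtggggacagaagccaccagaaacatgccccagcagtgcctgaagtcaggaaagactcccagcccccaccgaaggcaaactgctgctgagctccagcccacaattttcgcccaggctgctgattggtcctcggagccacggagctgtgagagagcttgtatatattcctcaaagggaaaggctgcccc
Kcnj8 (chr6:142571615-142571864, minus strand): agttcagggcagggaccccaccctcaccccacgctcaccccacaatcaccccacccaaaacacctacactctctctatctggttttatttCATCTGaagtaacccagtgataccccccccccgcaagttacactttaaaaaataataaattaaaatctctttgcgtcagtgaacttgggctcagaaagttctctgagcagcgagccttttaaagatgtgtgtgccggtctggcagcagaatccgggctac
Abcc9 (chr6:142702275-142702524, minus strand): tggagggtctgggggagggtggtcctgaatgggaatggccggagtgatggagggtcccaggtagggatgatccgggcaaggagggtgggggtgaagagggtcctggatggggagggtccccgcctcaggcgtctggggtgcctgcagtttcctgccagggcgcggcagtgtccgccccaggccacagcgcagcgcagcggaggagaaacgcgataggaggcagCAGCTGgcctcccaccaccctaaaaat
Cnn1 (chr9:22099003-22099252, plus strand): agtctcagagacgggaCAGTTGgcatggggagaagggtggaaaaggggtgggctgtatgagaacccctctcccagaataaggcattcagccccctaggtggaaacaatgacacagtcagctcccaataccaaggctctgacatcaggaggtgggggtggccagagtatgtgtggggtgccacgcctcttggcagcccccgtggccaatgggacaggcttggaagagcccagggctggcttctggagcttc
The CArG box, the binding motif of SRF, was searched on both strands and is in none of the 6 windows, while 1.4% of 27025 windows of this length hold it. The letters TGGGAA or TTCCCA are in the Abcc9 window only and in 21.5% of all windows. CANNTG is in the windows of Kcnj8, Abcc9, Cnn1 and Mcam, and in 66% of all. No motif was therefore shared by the 6 windows, which says nothing of sequences outside them or of Pdgfrb, Myh11 and Tagln.

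The libraries held 12540745 to 62424851 reads on genes, and 3 reads, taken as the floor, correspond to 0.0481 to 0.239 CPM, reads scaled to a common library size. Intervals and floors of this kind cover counting error only. Levels are RPKM, read counts divided by exon length and by the library size scaled by TMM. They can be compared between genes whose exons overlap other genes little or not at all. Autosomal genes of families that are silent in muscle, such as olfactory receptors (1850 genes), received 0.00969 to 0.228 reads per kb in 8 libraries, but 5.11 and 7.23 in F replicates 4 and 5, 3.84 in 5d-U replicate 1 and 0.633 in 5d-U replicate 6. Mitochondrial genes took 5.85% of the reads of 5d-U replicate 1 and 0.0681 to 1.15% of those of the other 11 libraries. At those densities on silent families, reads expected on the exons of a marker gene were 0.444 to 14.1% of its count in the 2 F libraries, 17.4 to 94.6% in 5d-U replicate 1 and 2.32 to 44.1% in 5d-U replicate 6. Pax7 was read in all 12 libraries, at 1.51 to 15.1 RPKM, and Myod1, a myogenic transcription factor, at 295 to 4547 RPKM. In bulk RNA, fewer cells of a type and less RNA per cell cannot be told apart.

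All 9 genes had the same order of group means, highest in F, then 2+3d-C, then 5d-U, and lowest in 2d-U. The share of all genes with this order was not counted. Some means were close, those of Cspg4 in 2+3d-C and 5d-U (0.544 and 0.488 RPKM) and those of Tagln in F and 2+3d-C (1.29 and 1.24 RPKM). Their summed level was 102 to 161 RPKM in F, 0.335 to 0.694 RPKM in 2d-U, 2.81 to 4.05 RPKM in 5d-U, and 28.2, 28.3 and 31.6 RPKM in the 2+3d-C libraries. The 4 ranges of this sum did not overlap. The mean of 2+3d-C was a median of 26.3% of the mean of F over the genes, from 14.3% for Pdgfrb to 96.7% for Tagln. In 2d-U, 6, 8 and 7 of the 9 genes had no read in replicates 1, 2 and 3. For 5 genes, Rgs5, Pdgfrb, Kcnj8, Myh11 and Tagln, each of the 6 libraries of F and 2+3d-C was above each of the 6 of 2d-U and 5d-U, a pattern found in 7.48% of all tested genes. Among lists described below, this pattern held for 7 of 14 other pericyte and 2 of 16 smooth muscle genes. It also held for 9 of 10 endothelial, 5 of 5 erythroid, 3 of 5 tenocyte, 3 of 6 glial and 4 of 9 fibroadipogenic genes. The counts were 3 of 8 for MuSC, 1 of 9 for immune and 1 of 8 for myofiber genes. The pattern was thus not particular to the 9 markers.

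**Figure D1:**
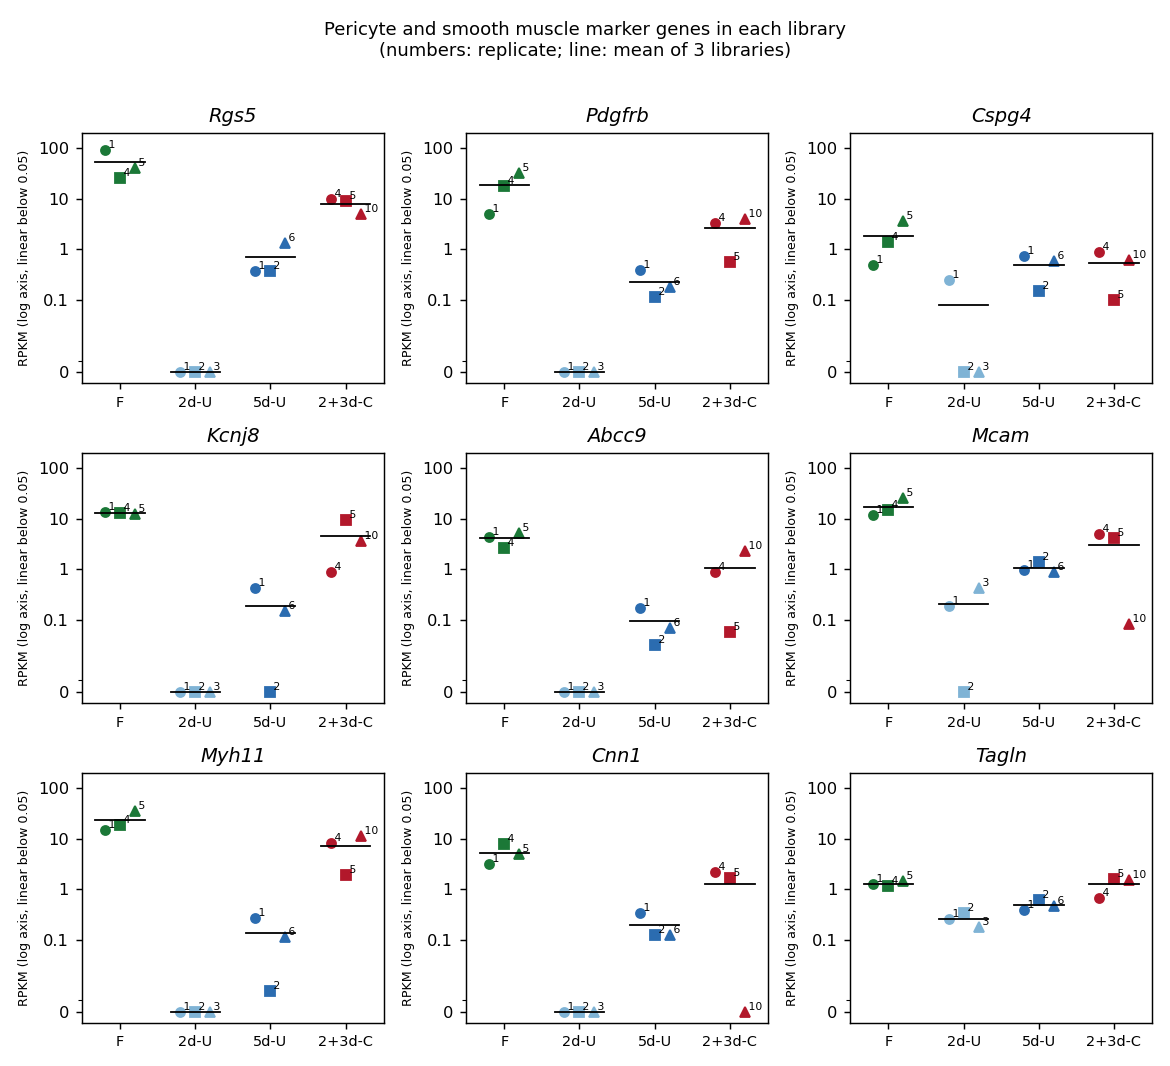
RPKM of each marker gene (vertical log axis, linear below 0.05) in the 12 libraries by group, with 1 point per library labelled by replicate and a line at the mean of 3 libraries. Points of 2d-U lie at 0 for 6 genes, and those of 2+3d-C lie mostly between F and 5d-U, with 1 low library each for Abcc9, Cnn1 and Mcam.

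Rgs5, a regulator of G-protein signaling and a common marker of pericytes, had the highest level among the 9 genes in F. It stood at 93.3, 26.2 and 40.9 RPKM in F replicates 1, 4 and 5 and had no read in the 3 libraries of 2d-U. It was at 0.381, 0.368 and 1.33 RPKM in 5d-U replicates 1, 2 and 6 and at 9.79, 8.93 and 4.96 RPKM in 2+3d-C replicates 4, 5 and 10. No groups overlapped. The fitted log2 fold change was 3.51 ± 0.67 (SE, n = 3 against 3) in 2+3d-C against 5d-U, was -2.76 ± 0.64 against F, and F was at least 3029-fold higher than 2d-U, computed against 3 reads in each 2d-U library. Its highest and lowest libraries in 2+3d-C differed 1.97-fold. Without 5d-U replicate 6 the value against 5d-U was 4.38.

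Pdgfrb, the receptor for platelet-derived growth factor B, was measured at 5.09, 17.6 and 32.5 RPKM in F and had no read in 2d-U. Its level was 0.388, 0.115 and 0.178 RPKM in 5d-U and 3.31, 0.573 and 4.00 RPKM in 2+3d-C, in the same order of replicates. All 2+3d-C libraries lay above 5d-U and below F, although replicate 5, with 26 reads, was close to the highest library of 5d-U. Fitted, its log2 fold change was 3.54 ± 0.87 (SE) against 5d-U and -2.81 ± 0.83 against F. Without 5d-U replicate 1 the first of these was 4.16, and without F replicate 5 the second was -2.11. F exceeded 2d-U by at least 1256-fold.

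Cspg4 encodes the proteoglycan NG2, another surface marker of pericytes. It was low throughout, at 0.502, 1.42 and 3.58 RPKM in F, 0.246, 0 and 0 RPKM in 2d-U, 0.730, 0.152 and 0.581 RPKM in 5d-U, and 0.907, 0.101 and 0.624 RPKM in 2+3d-C. F and 2d-U did not overlap, whereas 2+3d-C overlapped both 5d-U and F. Its log2 fold change of 0.16 ± 1.45 (SE) in 2+3d-C against 5d-U was within the error, as was that of -1.75 ± 1.49 against F.

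The 2 subunits of the potassium channel had unlike levels. Kcnj8 was at 13.5, 12.7 and 12.4 RPKM in F, the tightest group of any of the genes, with no read in 2d-U, at 0.425, 0 and 0.153 RPKM in 5d-U and at 0.890, 9.43 and 3.62 RPKM in 2+3d-C. Abcc9 was at 4.43, 2.66 and 5.09 RPKM in F, again with no read in 2d-U, at 0.176, 0.0417 and 0.0700 RPKM in 5d-U and at 0.866, 0.0577 and 2.28 RPKM in 2+3d-C. Kcnj8 in 2+3d-C was separate from 5d-U and from F, while Abcc9 in 2+3d-C replicate 5, with 4 reads, fell inside the range of 5d-U. The 34 Abcc9 reads of 5d-U replicate 1 compare with 32.2 expected from the density on silent families, so expression there was not detectable above that density. Within a library the ratio of Kcnj8 to Abcc9 was 3.05, 4.75 and 2.44 in F and 1.03, 163 and 1.59 in 2+3d-C replicates 4, 5 and 10. The log2 fold changes in 2+3d-C against 5d-U were 4.58 ± 1.25 (SE) for Kcnj8 and 3.48 ± 1.07 for Abcc9, and those against F were -1.48 ± 1.08 and -1.93 ± 1.00. Single libraries moved these values. Against 5d-U, Kcnj8 was at 3.54 without 2+3d-C replicate 5 and at 5.94 without 5d-U replicate 1, and Abcc9 at 2.30 without 2+3d-C replicate 10 and at 4.25 without 5d-U replicate 1. Against F, Kcnj8 was at -2.51 without 2+3d-C replicate 5 and Abcc9 at -3.09 without replicate 10.

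Mcam, an adhesion molecule (CD146) of pericytes, smooth muscle and endothelium, was at 11.7, 14.5 and 25.0 RPKM in F and at 0.192, 0 and 0.436 RPKM in 2d-U. In 5d-U it was at 0.958, 1.37 and 0.904 RPKM, the highest mean of the 9 genes in that group, and in 2+3d-C at 4.94, 4.07 and 0.0818 RPKM. The 2+3d-C libraries thus fell on both sides of 5d-U, with replicate 10 (6 reads) below it. The log2 fold change was 1.49 ± 1.13 (SE) against 5d-U and -2.50 ± 1.16 against F.

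Of the 3 contractile genes, Myh11, the heavy chain of smooth muscle myosin, had the largest log2 fold change of the 9 genes in 2+3d-C against 5d-U. It was measured at 14.8, 18.5 and 35.3 RPKM in F, with no read in 2d-U, at 0.268, 0.0184 and 0.116 RPKM in 5d-U and at 8.04, 1.94 and 11.1 RPKM in 2+3d-C. No groups overlapped, and the lowest 2+3d-C library had 122 reads against 4 to 47 in 5d-U. Fitted, the log2 fold change was 5.72 ± 0.95 (SE) against 5d-U and -1.71 ± 0.78 against F, and F was at least 2166-fold higher than 2d-U. Without 5d-U replicate 1 the first value was 6.74.

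Cnn1, the calponin of smooth muscle, stood at 3.21, 7.64 and 4.99 RPKM in F, had no read in 2d-U, and was at 0.333, 0.127 and 0.125 RPKM in 5d-U. The 2+3d-C libraries were at 2.20, 1.63 and 0 RPKM, so that 2 lay above 5d-U and replicate 10 below it. Replicate 10 of 2+3d-C had no Cnn1 read but the highest Myh11 of its group. The log2 fold change was 2.70 ± 1.37 (SE) against 5d-U and -2.05 ± 1.32 against F. Tagln, which encodes the actin-binding protein transgelin, was the only one of the 9 genes with reads in all 12 libraries. It was at 1.28, 1.16 and 1.43 RPKM in F, 0.257, 0.335 and 0.178 RPKM in 2d-U, 0.393, 0.614 and 0.467 RPKM in 5d-U, and 0.660, 1.58 and 1.49 RPKM in 2+3d-C. The 2+3d-C libraries were above 5d-U, by a narrow margin for replicate 4, and overlapped F. The log2 fold change was 1.33 ± 0.95 (SE) against 5d-U and -0.06 ± 0.93 against F. Tagln is uncertain, since 67.9% of its exon bases overlap other genes, among them Pcsk7 on the other strand, and counting ignored strand, so that reads there could not be assigned to 1 gene.

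By the edgeR quasi-likelihood test at an adjusted p under 0.05, 5 of the 9 genes were called higher under compression (2+3d-C against 5d-U, Rgs5, Pdgfrb, Kcnj8, Abcc9 and Myh11) and 0 lower, where 9.14% of all tested genes were called higher and 13.4% lower. In F against 2d-U, 8 were called higher and 0 lower, against 33.3% and 10.6% of all tested genes. In 2+3d-C against F, 0 were called higher and 1, Rgs5, lower, against 1.94% and 4.47%. Nothing is read from these counts, since the genes were chosen on the same contrasts. Of the 21 alternative fits of the first comparison, Rgs5 was called in 21, Myh11 in 20, Pdgfrb in 19, Kcnj8 in 16 and Abcc9 in 12. Groups did not overlap in the first comparison for 5 genes, in the higher direction (12.6% of all tested genes), in the second for 9 (32% of all) and in the third for 7, in the lower direction (18.2% of all). The median log2 fold change of all tested genes was -1.05, 1.63 and -0.76 in the 3 comparisons, and that of the 9 genes was 3.48 in the first and -1.93 in the third.

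Whether the genes moved together depended on the scale of the question. Across groups they did, with a median Spearman's rho over the 12 libraries of 0.807 in the 36 pairs (0.42 to 1), while the median rho of a marker gene with all tested genes was 0.105 to 0.424. The points share library and depth, and 6 genes share the 3 values at 0. Within groups the signs were mixed. The deviations of log2 CPM from the group means had a median Pearson's r of -0.089 over the pairs (-0.558 to 0.835), and 14 of 36 were above 0. With all tested genes, the median r of such deviations was -0.175 to 0.281, and it was above the median with the other markers for 8 of the 9 genes. The deviations were most alike for Pdgfrb and Myh11 (r = 0.835), Abcc9 and Myh11 (r = 0.805), Cnn1 and Mcam (r = 0.764) and Pdgfrb and Abcc9 (r = 0.76). They were most opposed for Abcc9 and Cnn1 (r = -0.558). These values rest on 3 libraries a group and include libraries near the floor. Cnn1 and Mcam had 0 and 6 reads in 2+3d-C replicate 10. In 5d-U replicate 1, reads expected from silent families were 94.6%, 62.1% and 42.9% of the counts of Abcc9, Myh11 and Pdgfrb. How much of r comes from such libraries was not tested.

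**Figure D2:**
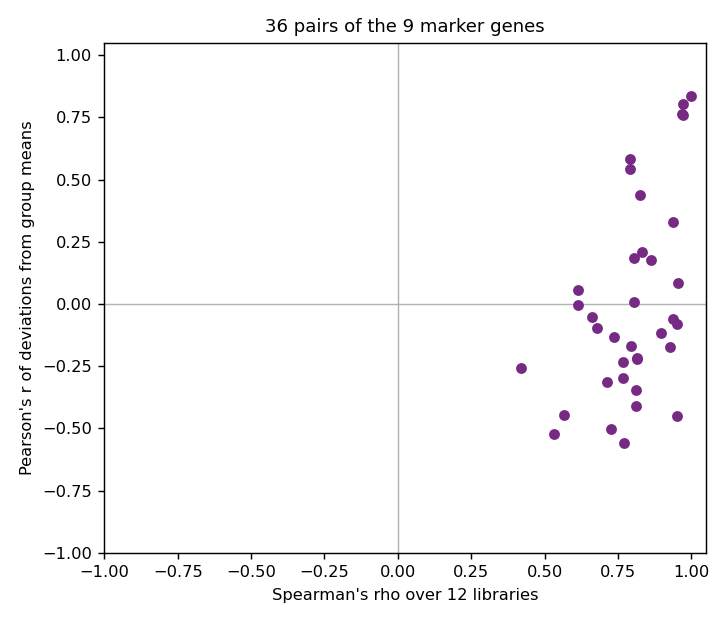
Each of 36 points is a pair of marker genes, with Spearman's rho over 12 libraries on the horizontal axis and Pearson's r of the deviations from the group means on the vertical axis. All pairs lie to the right of 0.4 on the horizontal axis, while on the vertical axis 14 lie above 0 and the others below it.

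The library with the highest level differed between genes in every group with reads. In F, replicate 5 was highest for 6 genes, replicate 1 for Rgs5 and Kcnj8, and replicate 4 for 1. In 5d-U, replicate 1, the library of that group with the most reads on silent families and the highest mitochondrial share, was highest for 6 genes. In 2+3d-C, replicate 4 was highest for 4 genes, replicate 10 for 3 and replicate 5 for 2. The make-up of the sum differed as well. Rgs5 made up 63.1% of the summed RPKM in F replicate 1 but 25.6% and 25.4% in replicates 4 and 5, and the ratio of Rgs5 to Pdgfrb was 18.3, 1.49 and 1.26. In 2+3d-C the largest share belonged to Rgs5 in replicate 4 (31.0%), to Kcnj8 in replicate 5 (33.3%) and to Myh11 in replicate 10 (39.5%). Rgs5 and Mcam had similar shares in replicates 4 and 5 (31.0% and 31.5%, 15.6% and 14.4%). Replicate 5 had the fewest reads of all libraries (12540745).

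**Figure D3:**
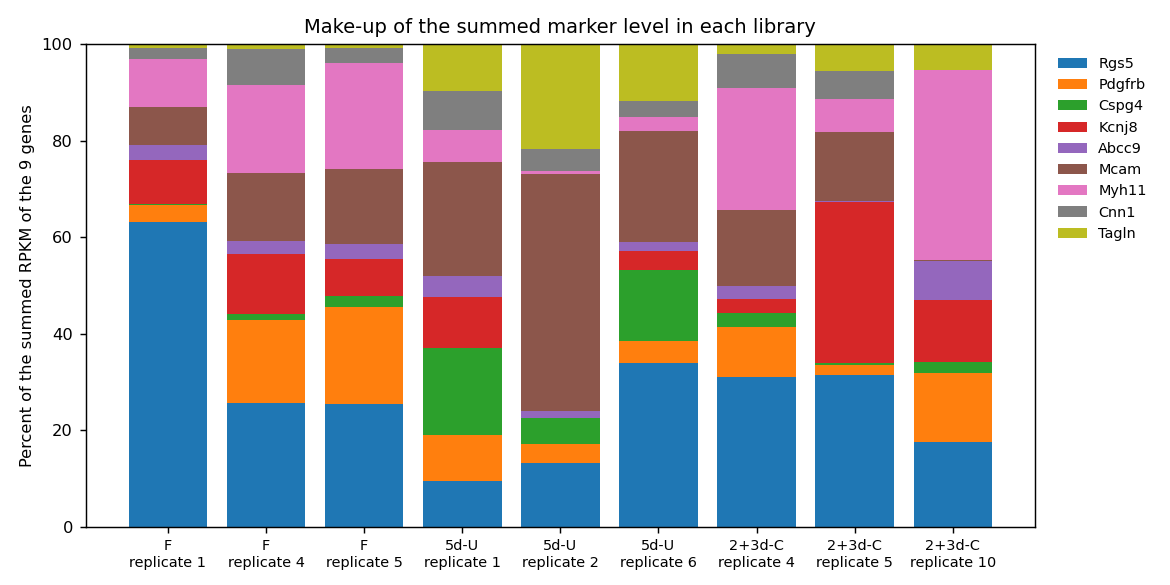
Bars show the percent of the summed RPKM of the 9 marker genes that each gene contributed, in the libraries of F, 5d-U and 2+3d-C. Rgs5 fills 63.1% of F replicate 1, and the largest segment of the 3 bars of 2+3d-C is a different gene in each.

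The genes whose log2 CPM was most like that of each marker over the 12 libraries were taken from 10433 tested genes averaging at least 5 CPM, as a description in which all points share library and depth. They were Ly6c1, Neurl3 and Cyp4v3 for Rgs5 (Pearson's r 0.985 to 0.974), Xdh, Utrn and Atp8b1 for Pdgfrb (0.994 to 0.989), and Tnrc6b, Dock4 and Vcan for Cspg4 (0.947 to 0.94). Those of Kcnj8 were Cd300lg, Apol10b and Sox17 (0.994 to 0.986) and those of Abcc9 were Dach1, Prom1 and Utrn (0.997 to 0.99). Myh11 was most like Abi3bp, Enpep and Sparcl1 (0.993 to 0.99), Cnn1 like Prss12, Bcas1 and Plcb1 (0.989 to 0.988), Mcam like Sbf2, Sh2d3c and Meox1 (0.958 to 0.941), and Tagln like Sept4, Sgce and Ctsf (0.957 to 0.955). Utrn was the only gene named for 2 markers, and no 2 of the 9 markers had all 3 genes in common.

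Further genes of pericytes and smooth muscle were set beside the 9 markers. These lists too were chosen with earlier results of these data known, so their p-values and counts are not independent support. Of 14 other pericyte genes, 7 rose and 0 fell in 2+3d-C against 5d-U (edgeR quasi-likelihood test, adjusted p under 0.05, where 8 had an unadjusted p under 0.05 and a higher level and 1 a lower, and DESeq2 called 8 higher and 0 lower). Of all tested genes, 9.14% were called higher and 13.4% lower. The 7 were Vtn, Notch3, Ndufa4l2, Steap4, P2ry14, Gucy1b1 and Heyl. Vtn, the adhesion protein vitronectin, was at 62.8, 31.0 and 33.3 RPKM in F, had no read in 2d-U, and was at 0.235, 0.0344 and 0.0481 RPKM in 5d-U and 56.7, 177 and 67.1 RPKM in 2+3d-C. It rose by 9.88 ± 0.92 on the log2 scale (edgeR adjusted p = 2.6e-05). Steap4, a metalloreductase, was at 98.3, 134 and 107 RPKM in F and at 100, 41.1 and 26.7 RPKM in 2+3d-C, against 0 to 0.0774 RPKM in 5d-U. The rise in Steap4 was 10.92 ± 1.00 (edgeR adjusted p = 2.3e-05). Notch3, the Notch receptor of mural cells that MuSCs also use, was at 6.66, 2.83 and 7.70 RPKM in F, 0.204, 0.237 and 1.28 RPKM in 5d-U and 56.6, 9.66 and 46.4 RPKM in 2+3d-C. Its rise over 5d-U was 6.04 ± 0.92 (edgeR adjusted p = 0.00042). Notch3 in 2+3d-C was also above F in all libraries, unlike any of the 9 markers, with a log2 fold change of 2.71 ± 0.78 that did not pass the threshold (edgeR adjusted p = 0.0528). Heyl, a target of Notch signaling, was at 22.3 to 44.1 RPKM in F and 34.9 to 164 RPKM in 2+3d-C, against 0.102 to 0.506 in 5d-U.

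The other 7 pericyte genes did not pass the test against 5d-U. Higd1b, for example, had 26, 0 and 0 reads in 2+3d-C and Gucy1a1, a subunit of the nitric oxide receptor, had 253, 3 and 220, a pattern across libraries like that of Abcc9, with its low value in replicate 5. Cox4i2 was at 0.642, 12.4 and 0.116 RPKM, highest in replicate 5 like Kcnj8. Anpep, an aminopeptidase of pericytes, was at 0.481, 0.0584 and 0.486 RPKM in 2+3d-C against 1.12 to 6.32 RPKM in F. F was called higher than 2d-U for 13 of the 14 and lower for 0, against 33.3% and 10.6% of all tested genes. The 13 include Atp13a5, with 0, 37 and 55 reads in F replicates 1, 4 and 5. From the density on silent families, 1.06, 23.8 and 33.7 reads were expected there. With such reads subtracted, Atp13a5 and Higd1b were not called. In 2+3d-C against F, edgeR called 0 of the 14 in either direction, with 1 higher and 4 lower at an unadjusted p under 0.05, and DESeq2 called 1 higher and 4 lower. The summed level of the 14 was 255 to 258 RPKM in F, 1.65 to 2.46 RPKM in 2d-U, 1.89 to 5.36 RPKM in 5d-U and 311 to 381 RPKM in 2+3d-C, with Vtn, Steap4, Notch3, P2ry14 and Heyl at the highest levels there. By gene, the 2+3d-C mean was above the F mean for Vtn, Notch3, Cox4i2, P2ry14 and Heyl and below it for the others. The lowest were Atp13a5 (0% of F), Foxs1 (3.88%), Anpep (8.78%) and Higd1b (8.98%). Which cells gave the sum was not tested. The median over the 14 genes of the mean in 2+3d-C was 34.5% of F, and that over the 16 smooth muscle genes was 57.0%. None of the 14, and none of the 9 markers, had a mean of 1 RPKM or more in 2d-U.

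The 16 other smooth muscle genes did not move as a group. In 2+3d-C against 5d-U, 3 rose (Mylk, Des and Itga8) and 3 fell (Actg2, Tpm1 and Tpm2) by the edgeR quasi-likelihood test. The shares of all tested genes were 9.14% and 13.4%. Mylk, the kinase that phosphorylates the myosin light chain, was at 3.31, 4.60 and 5.36 RPKM in F, 0.131, 0.0341 and 0.0781 RPKM in 5d-U and 2.33, 0.579 and 1.21 RPKM in 2+3d-C, a rise of 4.09 ± 1.22 (edgeR adjusted p = 0.027). Itga8, an integrin, had 1580, 17 and 9 reads in 2+3d-C and overlapped 5d-U, and it was not called without replicate 4. Tpm1, a tropomyosin that myogenic cells also express, was at 245, 518 and 461 RPKM in 5d-U and at 18.5, 44.2 and 15.6 RPKM in 2+3d-C, and fell by 3.97 ± 0.56 (edgeR adjusted p = 0.0002). Acta2, the smooth muscle actin, did not pass the test and was at 148, 167 and 142 RPKM in F, 28.5 to 38.6 RPKM in 2d-U, 20.5, 289 and 326 RPKM in 5d-U and 60.2, 125 and 126 RPKM in 2+3d-C (log2 fold change -1.03 ± 0.66, edgeR adjusted p = 0.228). Des, the desmin of all muscle types, was the 1 gene of the 16 called higher in 2+3d-C than in F (1.66 ± 0.40, edgeR adjusted p = 0.029). It was called in 12 of 21 alternative fits. Cald1 was also above F in every 2+3d-C library (48.0 to 54.2 against 15.3 to 21.6 RPKM) but was not called. In F against 2d-U, 6 were called higher and 1, Tpm1, lower, against 33.3% and 10.6% of all tested genes. As many as 8 of the 16, but none of the pericyte genes, had a mean of at least 1 RPKM in 2d-U.

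**Figure D4:**
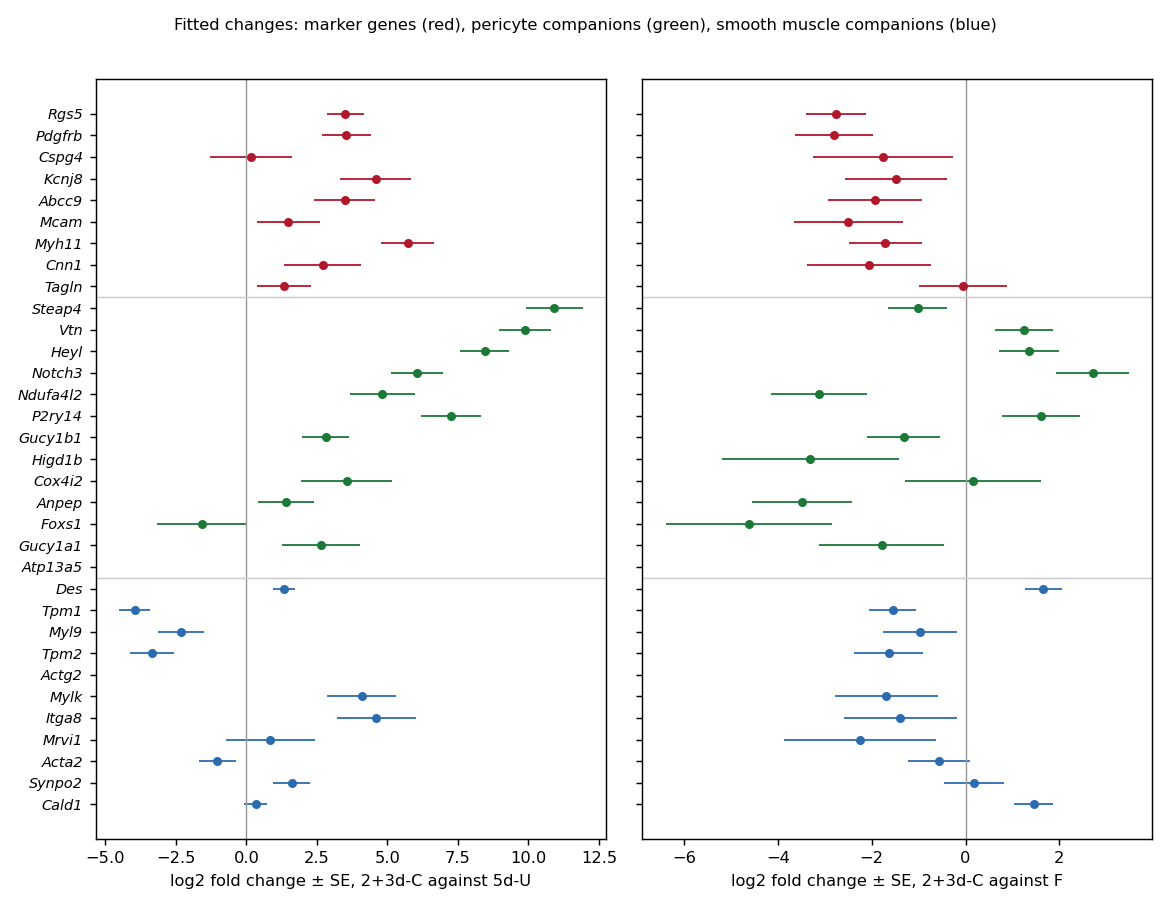
Fitted log2 fold change with its SE (horizontal axes) in 2+3d-C against 5d-U (left) and against F (right) for the 9 marker genes (red) and the named pericyte (green) and smooth muscle (blue) genes; genes with 3 or fewer reads in every library of a group are left blank. The markers sit right of 0 against 5d-U, Cspg4 close to it, and left of 0 or at it against F, whereas pericyte genes such as Vtn, Heyl and Notch3 sit right of 0 on both sides.

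Counts without single libraries differed for these lists. Of the 10 pericyte and smooth muscle genes that rose in 2+3d-C against 5d-U, 6 were called higher without 5d-U replicate 6, and 5 without the 4 libraries with many reads on silent families, which were chosen after seeing the data. Vtn, Notch3, Steap4, P2ry14 and Heyl passed the threshold in all 21 alternative fits, as did Tpm1 among the genes that fell. Mylk passed in 15 of 21, Itga8 in 14, Des in 10, and Gucy1b1 and Actg2 in 9 of 20.

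The ligands and cofactors upstream of these genes gave few calls. Of 9 genes (Pdgfa, Pdgfb, Pdgfc, Pdgfd, Pdgfra, Srf, Myocd, Mrtfa and Mrtfb), edgeR called 0 in 2+3d-C against 5d-U (0 higher and 1 lower at an unadjusted p under 0.05, and 0 by DESeq2). Pdgfb, the ligand of the receptor encoded by Pdgfrb, was at 2.03 to 4.56 RPKM in F and at 2.05, 0.580 and 2.26 RPKM in 2+3d-C. Pdgfra, the receptor of fibroadipogenic cells, was at 2.13, 9.79 and 15.5 RPKM in F, with no read in 2d-U, and at 0.849, 0.0241 and 0.00911 RPKM in 2+3d-C. Pdgfd was the 1 gene called in 2+3d-C against F, lower by -3.84 ± 0.72 on the log2 scale (edgeR adjusted p = 0.014). Myocd, the smooth muscle cofactor of SRF, had 16, 0 and 0 reads in 2+3d-C. In F against 2d-U, Pdgfra, Pdgfd and Myocd were called higher, and Pdgfa and Srf lower, against 33.3% and 10.6% of all tested genes.

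The relatives of the 9 markers mostly had other patterns. Of 14 such genes, 3 rose (Rgs4, Rgs2 and Myh14) and 3 fell (Cnn2, Tagln3 and Alcam) in 2+3d-C against 5d-U by the edgeR quasi-likelihood test. Of all tested genes, 9.14% rose and 13.4% fell. Rgs4, Rgs2 and Myh14 were also called higher in F against 2d-U, like most of the 9 markers. Rgs4 was at 59.3, 35.6 and 34.6 RPKM in F and 72.5, 48.7 and 44.4 RPKM in 2+3d-C, against 0.924, 11.1 and 12.3 RPKM in 5d-U (2.76 ± 0.72, edgeR adjusted p = 0.0139). Cnn3, the widely expressed calponin, was at 188 to 738 RPKM over all libraries, and Tagln2 at 121 to 781, far above Cnn1 and Tagln. The level of Tagln is uncertain here, since reads on the 67.9% of its exon bases that overlap other genes could not be assigned to it. The ratio of Myh9, a non-muscle myosin, to Myh11 was 0.348 to 0.49 in F, 1.02 to 1.99 in 2+3d-C and 21.1 to 387 in 5d-U.

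Markers of other cell types moved in the same comparisons. Beside the 28.2 to 31.6 RPKM of the 9 markers in 2+3d-C, the summed level of 10 endothelial genes was 75.4 to 161 RPKM (321 to 548 in F, 2.06 to 10.5 in 5d-U), with no library of 2+3d-C lacking any of them. The 6 genes of Schwann and other glial cells summed to 40.7 to 97.1 RPKM in 2+3d-C and to 0.786 to 3.21 in 5d-U, and 5 erythroid genes to 32.9 to 417 and to 0.0722 to 0.517. The 9 fibroadipogenic genes summed to 190 to 397 RPKM in 2+3d-C, of which Dpt alone made up 120 to 218, and to 611 to 1657.5 in F. The 9 immune genes summed to 23.0 to 72.2 RPKM in 2+3d-C and 445 to 1319 in F, and single genes differed. Ptprc, the pan-leukocyte gene, had no read in 2+3d-C, and Adgre1 and Cd3e were also at 0% of F. Cd74 was at 3.1% of F but was called higher in 2+3d-C against 5d-U in 20 of 21 alternative fits, and Ptprc was called lower in 18 of 20. The level in 2+3d-C was a median of 20.4% of F over the endothelial genes, 38.7% over the glial, 41.0% over the erythroid, 6.25% over the fibroadipogenic, 1.03% over the immune, 4.81% over the tenocyte and 8.51% over the myofiber genes, set beside 26.3% for the 9 markers. The 8 MuSC genes (Pax7, Myf5, Myod1, Vcam1, Itga7, Cdh15, Chodl and Calcr) were at a median of 292%, from 151% for Calcr to 654% for Myod1. Myod1 and Myf5 are myogenic factors that activated cells also express, so this list does not stand for quiescent stem cells alone. By the edgeR quasi-likelihood test, 8 of 10 endothelial, 3 of 6 glial, 5 of 5 erythroid, 3 of 9 fibroadipogenic, 1 of 9 immune, 3 of 5 tenocyte, 1 of 8 myofiber and 5 of 8 MuSC genes were called higher under compression against 5d-U, where 9.14% of all tested genes were. Called lower were 1 immune, 1 tenocyte and 2 myofiber genes and 0 endothelial, glial, erythroid, fibroadipogenic or MuSC genes, where 13.4% of all tested genes were. The part of other cells in the levels of the 9 markers was not tested.

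**Figure D5:**
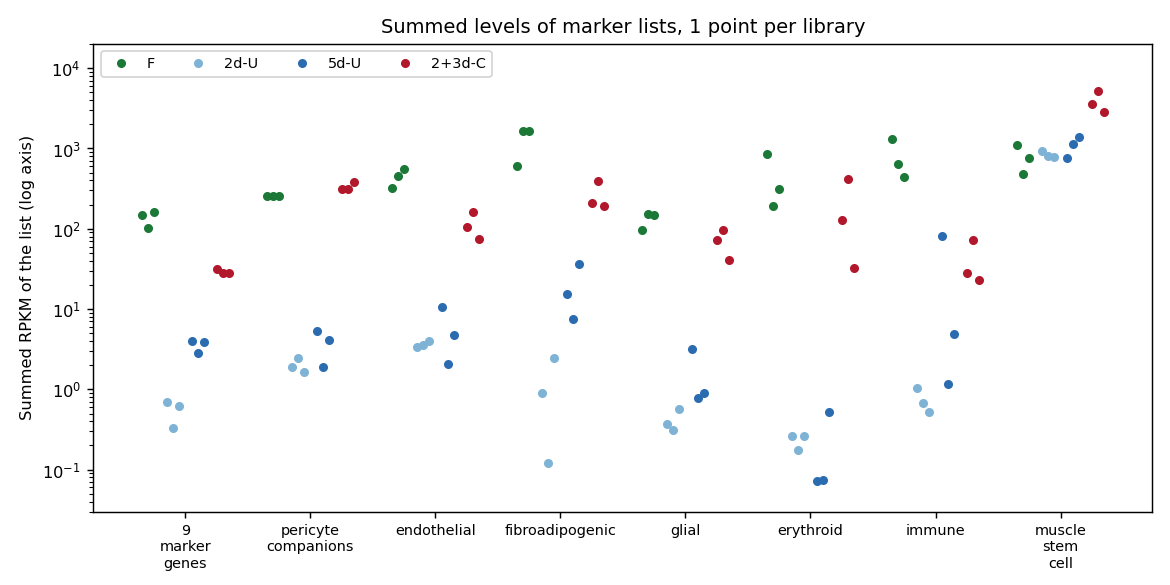
Summed RPKM (vertical log axis) of 8 lists of marker genes, with 1 point per library colored by group. The muscle stem cell list includes Myod1 and Myf5. For the 9 markers and the endothelial, glial and erythroid lists, all points of 2+3d-C lie above those of 2d-U and 5d-U, and for the 9 markers they lie between 28.2 and 31.6, below F.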

How the data were processed

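The authors aligned single-end reads of SMART-seq cDNA to mm10 with an nf-core pipeline and, per the file headers, counted reads on the exons of each gene without regard to strand. The deposited counts are whole reads per gene without normalization, and a merged table of the same libraries was not used. PCR duplicates cannot be told from independent molecules in them. The 9 markers and the other lists were chosen with earlier results of these data known.

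In R 4.3.3, edgeR 4.0.16 kept 22635 genes that pass filterByExpr, scaled libraries by TMM and fitted 1 quasi-likelihood model to all 12 libraries with a coefficient per group. Contrasts were tested two-sided with Benjamini-Hochberg adjustment over all tested genes, and called at 0.05. Log2 CPM used a prior count of 2. Folds over a group with 3 or fewer reads in each library were computed against 3 reads in each. Groups came from the labels. The procedure was tested on simulated data.

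Named are all 9 markers, of each list beside them the 3 genes with the highest mean RPKM, the 3 with the smallest p in each comparison and any gene called, and for each marker the 3 most similar genes. Genes of other cell types, Myh9, and the genes listed to define a list are named outside this rule, with their values seen. Alternatives were DESeq2 1.42.0 and its size factors, scaling by library size without TMM, no filter or a mean of at least 5 CPM, fits of 2 groups alone, the replicate number as a block, subtraction of reads expected from silent families, each library left out, and, added after seeing the data, leaving out the 4 libraries with over 0.5 reads per kb on silent families or a model term for them.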

Additional observations from a re-analysis of the deposited data

How the results depend on the processing

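Of the 10 companion genes higher and 3 lower in 2+3d-C against 5d-U, the 19 higher and 1 lower in F against 2d-U, and the 1 higher and 0 lower in 2+3d-C against F (pericyte and smooth muscle genes other than the 9 markers), 35 of 54 counts in other settings were within 1.5 times these. In 2+3d-C against 5d-U, the higher genes numbered 5 with the replicate number as a block, 5 without the 4 libraries with many reads on silent families and 6 with a model term for them. In F against 2d-U, 10 were higher without those 4 libraries, and 0 were lower with the block, without the 4 libraries or with the term. In 2+3d-C against F, the higher genes were 3 by DESeq2, 4 without a filter and 0 under each of library size without TMM, the 2 groups alone, the block, the 4 libraries left out and the term. The lower genes were 6 by DESeq2, 5 without a filter, 1 each with library size without TMM and the 2 groups alone, and 2 with the block. With 1 library left out at a time the counts ran from 6 (without 5d-U replicate 6) to 12 higher and from 2 to 5 lower (without 5d-U replicate 1) in the first comparison, from 13 to 23 and 0 (without F replicate 5) to 1 in the second, and from 0 (without F replicate 4) to 3 and 0 to 6 (without F replicate 1) in the third. The cause was not tested for settings that keep all 12 libraries.

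Of the fitted fold changes of the 9 markers in other settings, 213 of 240 moved by less than their spread, and 4 changed sign. In 2+3d-C against 5d-U, Pdgfrb was at -0.34 and Cspg4 at -4.44 with the replicate block, and Cspg4 in 2+3d-C against F was at 0.13 without the 4 libraries and at 0.052 with their model term. With 1 library left out, 4 of 324 changed sign, those of Cspg4 against 5d-U (-0.42 to 0.65) and of Tagln against F (-0.25 to 0.25). Same-numbered libraries did not deviate together (Pearson's r of deviations -0.424 to 0.0322). Whether they share an animal or a sort cannot be told from this, since the deviations also hold the unequal reads on silent families. The median log2 fold change of all tested genes in 2+3d-C against F was -0.76, with library size alone -1.24 and by DESeq2 -1.01, and against 5d-U it was -1.05, -1.21 and -0.90. It was near 0 over genes averaging at least 5 CPM (-0.0742 against F), without the 4 libraries (0.0442 against F and 0 against 5d-U) and, less closely, with their term (-0.188 and -0.108). Higd1b and Myocd, at 0 to 26 reads in 2+3d-C, are limited by depth.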
